A study of Mus musculus with 8 samples.

Results

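The 10 genes described here encode the core AP-1 subunits of the FOS group (Fos, Fosb, Fosl1 and Fosl2) and of the JUN group (Jun, Junb and Jund), together with the zinc-finger factors Egr1, Egr2 and Egr3. They were picked by symbol from a table of 49492 genes, all 10 were found, and all 10 passed the filter on low counts that left 17940 genes for testing. RNA had been sequenced from 8 mouse libraries labelled as CD8+ T cells of B16 tumours, with 4 libraries for each of 2 genotypes. Controls carried loxP-flanked Plpp1 alleles (PLPP1fl/fl). Knockouts carried the same alleles with Lckcre, a recombinase driven by the Lck promoter, which is active in T-lineage cells (Lckcre-PLPP1fl/fl). Plpp1 encodes phospholipid phosphatase 1, which dephosphorylates phosphatidic acid and related lipids. Per the series text, B16 melanoma cells had been implanted under the skin of female mice and CD8a beads were used to isolate the T cells on day 14. No age is stated for the mice. The title of the series links loss of Plpp1 to PD-1 signalling and ferroptosis, and the comparison asks how RNA levels differ between such cells with and without the gene.

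AP-1 is a dimer of basic leucine zipper proteins that binds DNA at short sites in promoters and enhancers. FOS proteins do not pair with each other and need partners such as JUN proteins, while JUN proteins can also pair with each other. In T cells, signals from the antigen receptor pass through MAP kinases to factors such as SRF, ELK and CREB, which switch on Fos, Jun and the Egr genes within minutes as immediate early genes, before any new protein is made. AP-1 then acts with NFAT and NF-kappaB at activation genes, while in mouse T cells Egr2 and Egr3 are known as restraints on activation and as part of the anergy programme.

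The libraries held 44118131 to 61999941 counts. Properties of the libraries bear on each result, as follows. Counts of Plpp1 stood at 0.677 to 1.08 CPM (counts scaled to library size) in controls and at 0.376 to 0.698 in knockouts, so the groups overlapped and neither was at 0, and which exons were deleted is not stated in the labels. The 4 Y-linked genes Ddx3y, Eif2s3y, Kdm5d and Uty gave a sum of 190 to 203 CPM in every knockout, whereas no control exceeded 0.244 CPM, against a description of the mice as female. The X-linked RNA Xist stood at 715 to 777 CPM in controls and at 45.6 to 56.3 CPM in knockouts, so both groups held it. Genotype and sex-chromosome expression therefore cannot be told apart in any result below. T cell markers were abundant in both groups, with control and knockout means for Cd8a of 331 ± 5.4 and 240 ± 7.8 CPM and for Cd3e of 113 ± 2.0 and 79.2 ± 4.8 (SD, n = 4), while Cd4 stood at 2.32 ± 0.16 and 1.52 ± 0.096 CPM. Of the 9 T cell markers listed, 8 were lower and 1 higher in knockouts in the test described below, with a median log2 fold change of -0.52. The higher gene was Cd2, at 316 ± 3.3 CPM in controls and 408 ± 18 in knockouts. Whether the libraries of one genotype come from different mice is not stated, so p-values rest on the spread among these libraries and that spread may be technical only. In these bulk samples a change in the share of cells and a change in RNA per cell cannot be told apart.

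The promoters of 5 of the genes are shown because these genes differ in how they moved, from Fosl2, Jun and Junb, which were higher in knockouts, to Fos and Egr2, which did not pass the test. Sequences are from RefSeq on GRCm38.p6, each 300 bases long, from 250 bases before to 50 bases after an annotated start of transcription, 5′ to 3′ on the strand of the gene. Windows are described for 7 of the 10 genes, and none was used for Fosl1, Egr1 and Egr3. Their absence here does not mean that RefSeq lists no window for them. Capitals mark matches, on either strand, to the motifs named after the sequences.
Fos, chr12:85473640-85473939, plus strand: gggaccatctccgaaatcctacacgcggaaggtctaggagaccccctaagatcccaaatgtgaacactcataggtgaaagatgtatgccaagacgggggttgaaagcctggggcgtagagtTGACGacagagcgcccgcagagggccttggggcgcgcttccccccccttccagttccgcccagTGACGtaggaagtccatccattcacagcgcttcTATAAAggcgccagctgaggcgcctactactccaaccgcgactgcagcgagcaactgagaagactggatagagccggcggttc
Fosl2, chr5:32136222-32136521, plus strand: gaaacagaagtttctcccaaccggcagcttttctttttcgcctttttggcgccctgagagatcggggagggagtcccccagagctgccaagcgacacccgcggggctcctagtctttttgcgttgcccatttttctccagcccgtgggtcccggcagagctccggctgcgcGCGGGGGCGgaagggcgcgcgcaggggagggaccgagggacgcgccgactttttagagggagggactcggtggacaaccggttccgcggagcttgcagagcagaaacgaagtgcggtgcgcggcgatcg
Jun, chr4:95052173-95052472, minus strand: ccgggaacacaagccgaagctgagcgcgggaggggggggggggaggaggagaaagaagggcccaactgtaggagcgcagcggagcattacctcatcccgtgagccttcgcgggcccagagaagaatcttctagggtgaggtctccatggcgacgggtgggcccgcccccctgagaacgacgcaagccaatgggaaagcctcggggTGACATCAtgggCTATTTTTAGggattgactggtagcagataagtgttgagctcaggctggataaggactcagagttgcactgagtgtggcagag
Junb, chr8:84978699-84978998, minus strand: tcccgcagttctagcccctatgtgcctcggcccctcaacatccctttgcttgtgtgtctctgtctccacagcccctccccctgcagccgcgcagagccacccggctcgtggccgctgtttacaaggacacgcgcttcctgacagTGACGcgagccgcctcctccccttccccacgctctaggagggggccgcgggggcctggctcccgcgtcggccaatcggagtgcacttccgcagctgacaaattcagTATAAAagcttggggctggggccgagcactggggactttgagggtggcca
Egr2, chr10:67537619-67537918, plus strand: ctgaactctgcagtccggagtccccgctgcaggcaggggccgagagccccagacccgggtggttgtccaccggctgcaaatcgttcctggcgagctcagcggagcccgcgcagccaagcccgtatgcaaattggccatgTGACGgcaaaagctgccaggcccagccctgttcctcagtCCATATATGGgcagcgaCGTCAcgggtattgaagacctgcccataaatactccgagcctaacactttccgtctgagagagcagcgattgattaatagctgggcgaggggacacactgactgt

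The motifs were chosen with the sequences in view, were searched on both strands, and a match is a description of letters, not of a bound site. The Fos window held TGACG, the core of the cAMP response element (CRE), starting 129 and 66 bases before the start site, and the TATAAA box 33 bases before it. TGACG was present in 20.8% and TATAAA in 13.6% of 32851 RefSeq windows of this length. The Jun window held TGACATCA, a variant of the AP-1 site, 45 bases before the start, and a match to the motif of MEF2 factors (the second run of capitals) 33 bases before it. These were present in 3.62% and 0.557% of all windows. The Fosl2 window held GCGGGGGCG, a match to the EGR motif GCGNGGGCG, 79 bases before the start, a motif found in 5.55% of windows. The table places the first exon of Fosl2 671 bases upstream of that RefSeq start, so the gene has more than one annotated start. The Junb window held TGACG 106 bases before the start, and its TATAAA began at the start site itself. That RefSeq start lies 30 bases upstream of the start of Junb as counted here. RefSeq lists 5 windows for Egr2, and the one printed starts from a site 2394 bases downstream of the start of the gene in the table. This Egr2 window held the CArG box, the binding motif of SRF, 72 bases before the start, with TGACG on the plus strand 111 bases and on the minus strand 55 bases before it. The CArG box was present in 1.63% of windows. Of the other Egr2 windows, the one whose start site lies 24 bases from the start of the gene in the table held none of the motifs, 2 overlap the printed one and hold the same matches, and 1 held a CArG box. Of the windows of genes not printed, that of Fosb held TGACG 60 bases and GCGGGGGCG 50 bases before its start, and that of Jund, whose RefSeq start lies 1210 bases upstream of the exon counted here, held none of the motifs. Neither the AP-1 site TGAGTCA nor the full CRE TGACGTCA, present in 5.2% and 1.79% of all windows, occurred in the 7 genes' windows. TGACG is contained in TGACGTCA, so those matches are not independent.

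Across the AP-1 and EGR genes, knockout libraries held more RNA of Fosl1, Fosl2, Jun, Junb, Egr1 and Fosb, less of Egr3 and slightly less of Jund, while Fos and Egr2 did not pass the test. In counts, 6 of the 10 genes rose and 2 fell (edgeR quasi-likelihood test, p adjusted over all tested genes by Benjamini-Hochberg, threshold 0.05). Among all 17940 tested genes 64.3% passed, 32.8% upward and 31.6% downward, so a call by itself was common in these data. Of the 10, 2 rose and 1 fell by more than 2-fold in the fit, against 5.8% and 7.55% of all tested genes. The median log2 fold change of the 10 genes was 0.55, and that of all tested genes was -0.012. In 7 of the 10 the knockouts did not overlap the controls in CPM, against 58.3% of all tested genes.

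**Figure D1:**
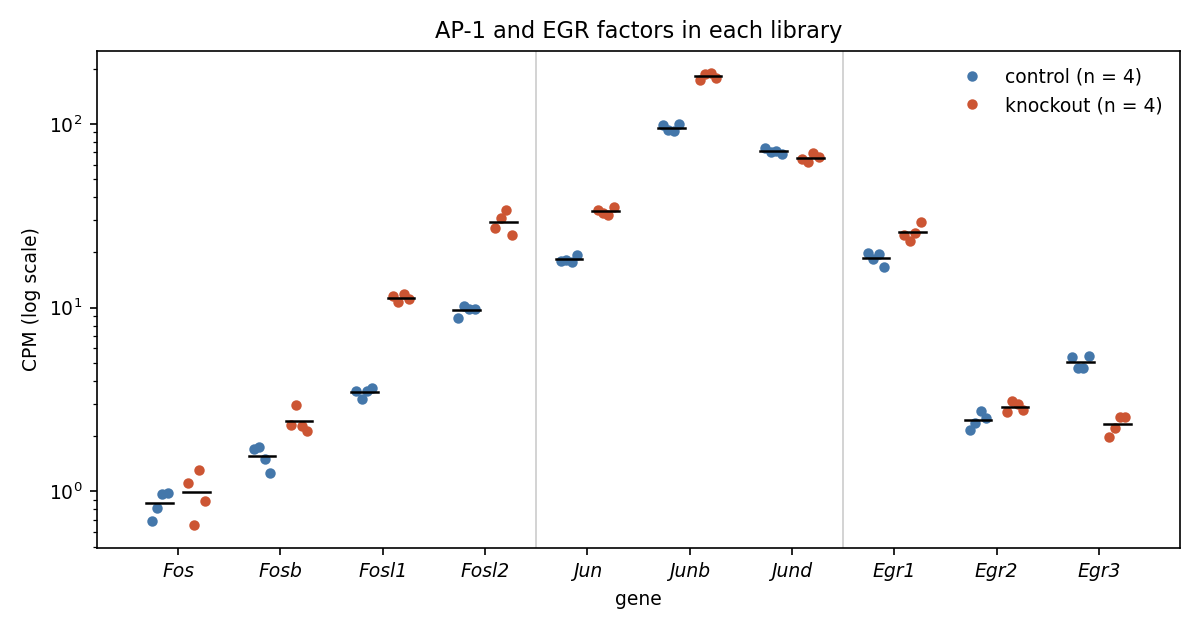
Level of each gene in each library, in CPM on a log axis, with controls in blue, knockouts in orange and black bars at the mean of 4 libraries. Fosl1, Fosl2, Jun and Junb show separated groups, from 3.47 to 11.3 CPM for Fosl1 and from 95.4 to 182 CPM for Junb, Egr3 is separated in the other direction, and Fos, Jund and Egr2 overlap.

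Among the FOS genes, the largest differences were in the FOS-related antigens. Fosl1 encodes FRA-1, which lacks the transactivation domain of FOS. It lies on the plus strand of chromosome 19 of GRCm38 from 5447703 to 5455945. Its level stood at 3.52, 3.17, 3.54 and 3.67 CPM in the controls and at 11.6, 10.8, 11.8 and 11.2 CPM in the knockouts. Each knockout library was above each control, and within each group the libraries lay close together. On the log2 scale the rise was 1.71 (SE 0.083, edgeR quasi-likelihood, adjusted p = 2.0e-14). Of all tested genes, 96% had a smaller change in size.

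Fosl2 encodes FRA-2, the other FOS-related antigen, and lies on the plus strand of chromosome 5 from 32135801 to 32157842. It stood at 8.81, 10.3, 9.79 and 9.88 CPM in the controls and at 27.2, 30.8, 34.2 and 24.9 CPM in the knockouts. The knockouts were all higher but more scattered, with a coefficient of variation of 13.9% against 6.4% in controls. Counting error alone, with each read pair taken as 2 counts, would give 3.71% in the knockouts. Fosl2 rose by 1.60 on the log2 scale (SE 0.085, edgeR quasi-likelihood, adjusted p = 1.0e-11).

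Fosb, whose protein carries the full FOS activation domain, lies on the minus strand of chromosome 7 from 19302696 to 19310051. It stood at 1.70, 1.75, 1.51 and 1.25 CPM in the controls and at 2.30, 2.97, 2.28 and 2.14 CPM in the knockouts. Knockout libraries were again all higher, at 72 to 136 counts per library over both groups. Fosb rose by 0.63 on the log2 scale (SE 0.15, edgeR quasi-likelihood, adjusted p = 9.0e-04).

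Fos, the founding member and the standard marker of recent stimulation, lies on the plus strand of chromosome 12 from 85473890 to 85477273. It held 42, 50, 50 and 56 counts in the controls and 48, 30, 75 and 45 in the knockouts, or 0.688 to 0.974 and 0.654 to 1.31 CPM. The knockouts had both the lowest and the highest library, so the groups overlapped completely. The log2 fold change was 0.21 with a 95% interval from -0.25 to 0.68 (edgeR quasi-likelihood, adjusted p = 0.42). A rise of the size seen in Fosl1 or Fosl2 is outside that interval. Only 21.6% of tested genes had a lower mean CPM than Fos.

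Among the JUN genes, Jun and Junb were higher in knockouts and Jund was not. Jun encodes c-Jun, the main activating partner of FOS proteins, in a single exon on the minus strand of chromosome 4 from 95049034 to 95052222. It stood at 17.9, 18.2, 17.8 and 19.5 CPM in the controls and at 34.2, 32.9, 32.1 and 35.2 CPM in the knockouts. The groups were far apart, with a coefficient of variation of 4.08% and 4.16% within them. Jun rose by 0.87 on the log2 scale (SE 0.053, edgeR quasi-likelihood, adjusted p = 1.2e-12). Of its exonic bases 232 are shared with the opposite-strand gene Junos, which held 16 to 40 counts per library, and how reads in these shared bases were assigned is not stated.

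Junb, which in T cells pairs with BATF as well as with FOS proteins, was the most abundant of the 10 genes in the knockouts. It lies on the minus strand of chromosome 8 from 84974484 to 84978718. It stood at 98.4, 92.2, 91.1 and 100.1 CPM in the controls and at 173, 187, 189 and 178 CPM in the knockouts. All knockout libraries were above all controls. Junb rose by 0.93 on the log2 scale (SE 0.046, edgeR quasi-likelihood, adjusted p = 3.6e-14). Its overlap of 173 exonic bases with the opposite-strand gene Prdx2, an antioxidant enzyme at 33.9 ± 2.9 CPM in controls and 38.3 ± 2.2 in knockouts (SD, n = 4), makes 7.52% of its exonic length uncertain.

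Jund, the JUN gene usually found at a steady level in resting cells, lies on the plus strand of chromosome 8 from 70698949 to 70700616. It stood at 74.2, 70.5, 71.5 and 69.0 CPM in the controls and at 64.5, 62.4, 69.4 and 66.3 CPM in the knockouts. Knockout replicate 3 lay within the range of the controls and the other 3 below it. Its difference on the log2 scale was -0.12 (SE 0.045, edgeR quasi-likelihood, adjusted p = 0.027). The call was lost without control replicate 1 (adjusted p = 0.087), knockout replicate 1 (adjusted p = 0.056) or knockout replicate 2 (adjusted p = 0.086). In addition, 52.6% of the Jund exon is shared with the opposite-strand predicted gene Gm11175, which lies wholly inside it and held counts at 0.882 of the density of Jund. Gm11175 had means of 31.3 ± 1.5 CPM in controls and 32.7 ± 2.5 in knockouts (SD, n = 4). The sum of both genes was 99.9 to 105 CPM in controls and 92.7 to 103 in knockouts, so the groups overlapped. How reads were divided between these genes is not stated, and the level of Jund is uncertain.

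Among the EGR genes, Egr1 rose, Egr3 fell and Egr2 did not pass the test. Egr1, a zinc-finger factor induced by ERK signalling, lies on the plus strand of chromosome 18. It stood at 19.8, 18.4, 19.7 and 16.6 CPM in the controls and at 25.0, 23.0, 25.6 and 29.1 CPM in the knockouts. The groups did not overlap, and the distance between the highest control and the lowest knockout was smaller than the spread among the knockouts. Egr1 rose by 0.46 on the log2 scale (SE 0.070, edgeR quasi-likelihood, adjusted p = 4.4e-06).

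Egr3, which in T cells limits activation together with Egr2, was the gene that moved against most others. It lies on the plus strand of chromosome 14 and its counted exons run from 70077445 to 70080157. It stood at 5.39, 4.69, 4.68 and 5.43 CPM in the controls and at 1.98, 2.23, 2.54 and 2.55 CPM in the knockouts. Each knockout was below each control. On the log2 scale the difference was -1.11 (SE 0.11, edgeR quasi-likelihood, adjusted p = 1.0e-08), and the knockout mean was 46.1% of the control mean. The table counted 1416 exonic bases of Egr3, whereas GENCODE M21, on the same build, annotates 4406 over all transcripts of the gene. Reads from the annotated bases outside the counted exons are not in these counts. Among the 10 genes only Fosl1 also had fewer bases in the table, 1707 against 2033.

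Egr2, the close relative of Egr3, lies on the plus strand of chromosome 10 from 67535475 to 67542188. It stood at 2.16, 2.35, 2.75 and 2.51 CPM in the controls and at 2.72, 3.10, 2.99 and 2.77 CPM in the knockouts. Control replicate 3 lay above the lowest knockout, so the groups overlapped at one library. The log2 fold change was 0.25 with a 95% interval from -0.0032 to 0.50 (edgeR quasi-likelihood, adjusted p = 0.078). Without control replicate 3 it was 0.30 and passed the test (edgeR quasi-likelihood, adjusted p = 0.048). Within a library the ratio of Egr2 to Egr3 in CPM was 0.401 to 0.587 in controls and 1.09 to 1.39 in knockouts, and the ratio of Egr1 to Egr3 was 3.06 to 4.2 and 10.1 to 12.6. These CPM ratios take no account of length, with 3398 exonic bases counted for Egr2 and 1416 for Egr3. Per exonic length, as given below, Egr3 stayed above Egr2 in both groups.

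**Figure D2:**
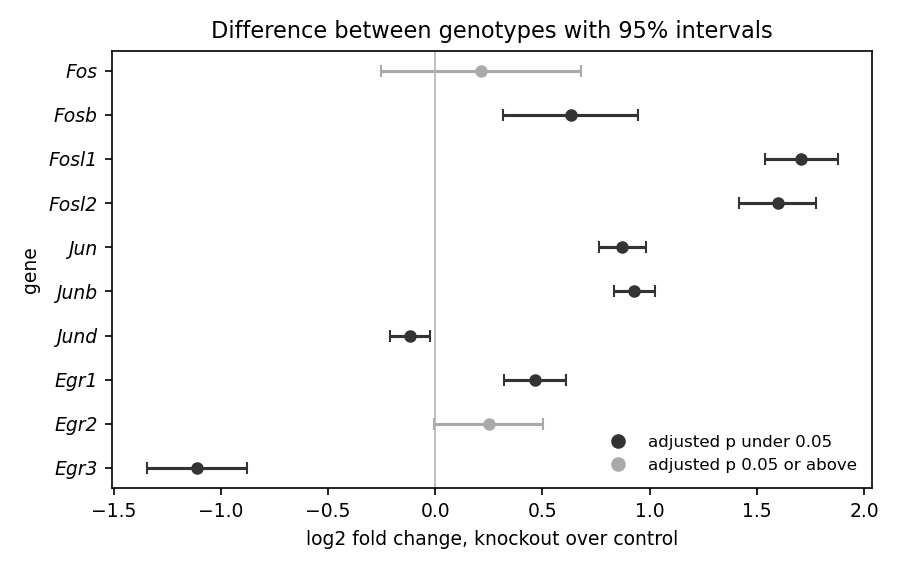
Log2 fold change of each gene, knockout over control (x axis), with 95% intervals from the quasi-likelihood fit and grey where the adjusted p was 0.05 or above. Fosl1 and Fosl2 lie at 1.71 and 1.60, Jun and Junb at 0.87 and 0.93, Jund at -0.12 and Egr3 at -1.11.

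Levels of different genes were compared per exonic length, as TPM (counts per exonic length, scaled to the same sum in each library). In these units the JUN genes far exceeded the FOS genes in both groups. The JUN genes summed to 216 to 221 TPM in controls and 301 to 331 in knockouts, and the FOS genes to 8.42 to 9.34 TPM in controls and 23.4 to 28.1 in knockouts. The ratio of the sums, JUN over FOS, was 23.6 to 26.3 in controls and 11.8 to 13 in knockouts. The groups did not overlap in any of these. The EGR genes summed to 19.9 to 21.2 TPM in controls and 18.8 to 21.7 in knockouts, so their total overlapped between groups. Sums over the chosen genes are given as a description and were not tested.

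Within the JUN sum, Junb held 45.0% to 47.8% in controls and 60.3% to 63.1% in knockouts. Jund went from 45.5% to 48.7% in controls to 29.0% to 31.1% in knockouts, subject to its overlap with Gm11175. The balance of the JUN genes thus moved from near parity of Junb and Jund to a majority of Junb in every knockout library. The share of Jun itself was 6.05% to 6.71% in controls and 7.53% to 8.62% in knockouts. Within the FOS sum, Fosl1 held 52.4% to 58.3% in controls and 60.9% to 66.5% in knockouts, while the share of Fosl2 overlapped at 25.7% to 29.9% and 26.2% to 31.1%. Both FOS-related antigens together made up most of the FOS sum in all 8 libraries. Fos made up 8.27% to 11% of the FOS sum in controls and 2.72% to 4.88% in knockouts. Within the EGR sum, Egr1 held 44.8% to 51.6% in controls and 67.4% to 71.7% in knockouts, and Egr3 38.9% to 46.3% and 18% to 21.4%. The share of Egr2 overlapped between the groups, at 7.19% to 9.51% and 8.94% to 11.97%.

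**Figure D3:**
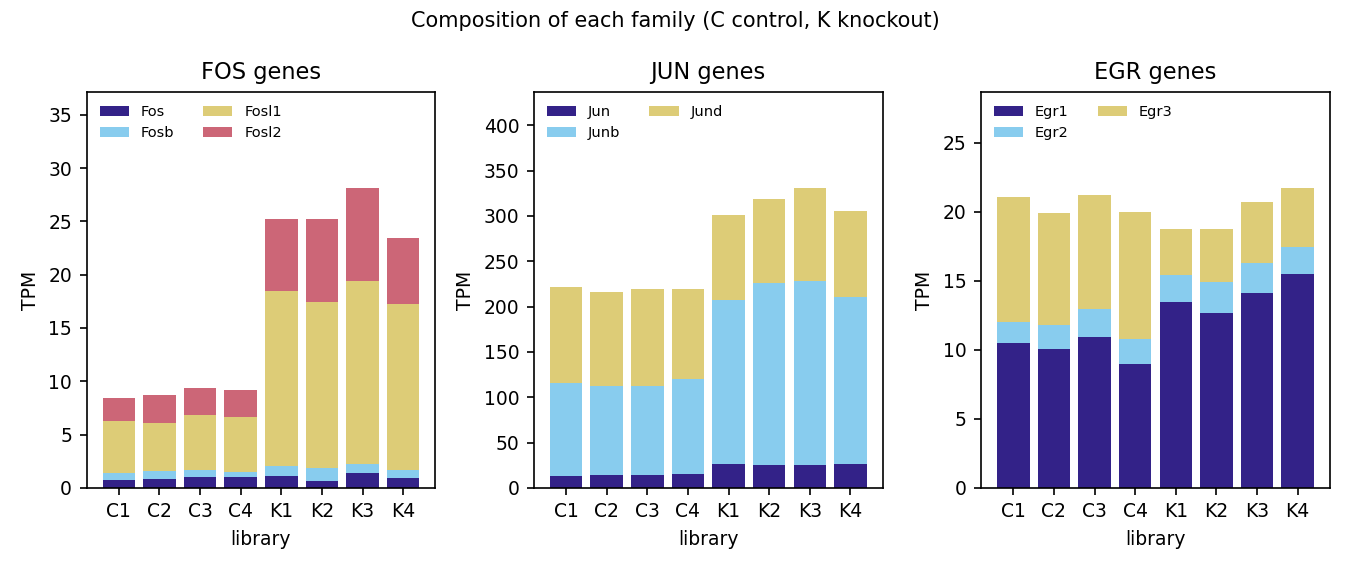
Stacked TPM of the FOS, JUN and EGR genes in each library (C1 to C4 controls, K1 to K4 knockouts), with each colour for 1 gene and a separate scale in each panel. The FOS and JUN bars are taller in all knockout libraries, and in the EGR panel the height is similar while Egr3 takes 18% to 21.4% of the knockout bars against 38.9% to 46.3% of the control bars.

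Ordered by mean TPM in controls, Jund at 104 ± 3.1 and Junb at 101 ± 3.1 led (SD, n = 4), and their ranges overlapped. Jun followed at 14.0 ± 0.56, then Egr1 at 10.1 ± 0.85 and Egr3 at 8.68 ± 0.57, again with overlapping ranges. Fosl1 stood at 4.96 ± 0.30, Fosl2 at 2.44 ± 0.19, Egr2 at 1.75 ± 0.21, Fos at 0.893 ± 0.15 and Fosb at 0.607 ± 0.088 TPM (SD, n = 4), and each of these ranges lay apart from the next. The JUN genes thus led the order and Fos and Fosb closed it. In knockouts the order was Junb at 192 ± 11, Jund at 95.9 ± 4.9, Jun at 25.6 ± 0.62, Fosl1 at 16.2 ± 0.76 and Egr1 at 13.9 ± 1.2 TPM, without overlap between neighbours. Fosl1 stood above Egr1 there and below it in controls. Below them stood Fosl2 at 7.37 ± 1.1, Egr3 at 4.0 ± 0.48 and Egr2 at 2.08 ± 0.16 TPM, also apart from each other. Fos and Fosb, at 1.02 ± 0.30 and 0.946 ± 0.16 TPM (SD, n = 4), overlapped at the bottom of the order.

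The genes whose profile over the 8 libraries was most like that of each factor were found as those with the smallest root mean square difference in log2 CPM after centring, among tested genes with a mean of at least 1 CPM. For Fosl1 this was Lad1, a difference of 0.048, which went from 31.4 to 99.6 CPM. For Fosl2 they were Cdc42bpb at 0.11 and Irf4, a transcription factor that binds DNA together with BATF and JUN proteins, at 0.12. Jun was closest to Pus1 (0.031) and Ptcd3 (0.035), and Junb to Rrp1b (0.036) and Pdxk (0.038). Egr3 was closest to St6gal1 (0.082), Egr2 to Mapk8 (0.045), Egr1 to Nek3 (0.057) and Jund to Dpp7 (0.030). Fosb was closest to Gk (0.10) and Fos to Cdk20 (0.14), so Fos had no match as close as the others. There were 10810 or 10811 candidates for each gene, and the measure over 8 libraries includes the difference between the 2 groups.

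Lists of genes around the factors were then described by how many of their tested members passed the same test, beside 64.3% of all tested genes, and without a test of the list. Among other basic leucine zipper partners 10 of 20 rose and 3 fell, a share of 65% with a median log2 fold change of 0.30. Batf3, which dimerises with JUN proteins, rose from 30.4 ± 2.8 to 256 ± 9.6 CPM (SD, n = 4). The gene for the JUN partner ATF3, induced by stress, rose from 3.25 ± 0.25 to 34.3 ± 0.94 CPM. Their log2 fold changes were 3.07 (SE 0.058, edgeR quasi-likelihood, adjusted p = 2.0e-21) and 3.39 (SE 0.067, adjusted p = 3.2e-21), larger than that of any FOS or JUN gene. Mafg, a small MAF protein, rose by 1.04 on the log2 scale (SE 0.049). Jdp2, a repressor that pairs with JUN proteins, fell by 1.36 (SE 0.047), with control and knockout means of 86.3 ± 1.5 and 33.5 ± 1.9 CPM. Batf, named here after its values were seen, had means of 109 ± 7.9 CPM in controls and 129 ± 3.6 in knockouts (SD, n = 4).

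Of the upstream SRF and CREB group, 4 of 14 rose and 8 fell, with a median of -0.33. Creb1, the CRE-binding factor, fell from 205 ± 3.6 to 112 ± 7.3 CPM, and Crem, whose products include inducible repressors of CRE-driven genes, rose from 8.30 ± 0.42 to 36.1 ± 2.2 CPM (SD, n = 4). Elk4, a cofactor of SRF, fell by 1.2 (SE 0.051), and Mkl1, the actin-regulated SRF coactivator, by 0.54 (SE 0.052). Srf itself, named after its values were seen, rose from 26.5 ± 1.7 to 32.8 ± 0.28 CPM (SD, n = 4). Of the MAP kinase cascade 14 of 29 rose and 7 fell, with a median of 0.11. Map2k3, a kinase of p38, and Hras rose by 1.08 (SE 0.054) and 0.88 (SE 0.056), while Map3k1, a kinase upstream of JNK, and Rasgrp1, which links diacylglycerol to RAS in T cells, fell by 0.67 (SE 0.056) and 0.55 (SE 0.045).

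Other immediate early genes moved in both directions, with 21 of 36 higher and 10 lower and a median of 0.46. Besides Atf3, the smallest adjusted p values were those of Rgs1, a brake on G-protein signalling, Gem, a small GTPase, and the nuclear receptor gene Nr4a3, which rose by 2.16 (SE 0.054), 2.05 (SE 0.064) and 1.52 (SE 0.051). The falls, picked after their values were seen, included Klf2, a quiescence factor, from 19.1 ± 1.5 to 3.65 ± 0.51 CPM, and Dusp1, a MAP kinase phosphatase, from 15.6 ± 0.68 to 10.2 ± 0.56 CPM (SD, n = 4). Ier2, a small nuclear protein gene induced alongside Fos and also named after its values were seen, stood at 19.7 ± 0.32 and 26.5 ± 2.0 CPM. Of the EGR partners 1 of 4 tested genes rose and 2 fell. The corepressor genes Nab1 and Nab2 changed by 0.18 (SE 0.042) and -0.16 (SE 0.051), and Sp1, which binds similar GC-rich sites, by -0.29 (SE 0.050). The EGR family gene Egr4 and its zinc-finger relative Wt1 did not pass the filter on low counts.

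Genes linked in general knowledge to control by AP-1 with NFAT, or by Egr2 and Egr3 in anergy, were listed without any data on binding. Of the AP-1 and NFAT list 16 of 22 tested genes rose and 2 fell, with a median of 1.18. Il2ra, the high-affinity interleukin-2 receptor chain, Ifng, the cytokine interferon gamma, the costimulatory receptor gene Tnfrsf4 and Gzmb, the protease granzyme B, rose by 2.12 (SE 0.045), 4.0 (SE 0.095), 2.33 (SE 0.055) and 2.16 (SE 0.052). Il2, Il3 and Il21 did not pass the filter. Of the anergy list 6 of 17 rose and 11 fell, with a median of -0.39. Dgka, a diacylglycerol kinase that dampens RAS signalling, and the cell cycle inhibitor gene Cdkn1b fell by 1.52 (SE 0.045) and 1.35 (SE 0.051). Cdkn1a, another cell cycle inhibitor, and the costimulatory receptor gene Tnfrsf9 rose by 1.77 (SE 0.046) and 1.58 (SE 0.045), so members of this list moved in both directions. Of the genes listed for AP-1 protein turnover 9 of 12 rose and 2 fell, with a median of 0.21. This list includes Usp6nl, which rose and whose place in AP-1 turnover is not established. Usp28, a deubiquitinase that stabilises JUN, fell by 1.18 (SE 0.077), and Cops5, a signalosome subunit first known as a JUN coactivator, Ddb1 and Cul4a, subunits of a ubiquitin ligase, rose by 0.47 (SE 0.051), 0.42 (SE 0.046) and 0.26 (SE 0.044). Atf3 and Maff, Nab2, Fasl and Itch each stand in more than 1 of these lists, which are therefore not separate evidence.

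**Figure D4:**
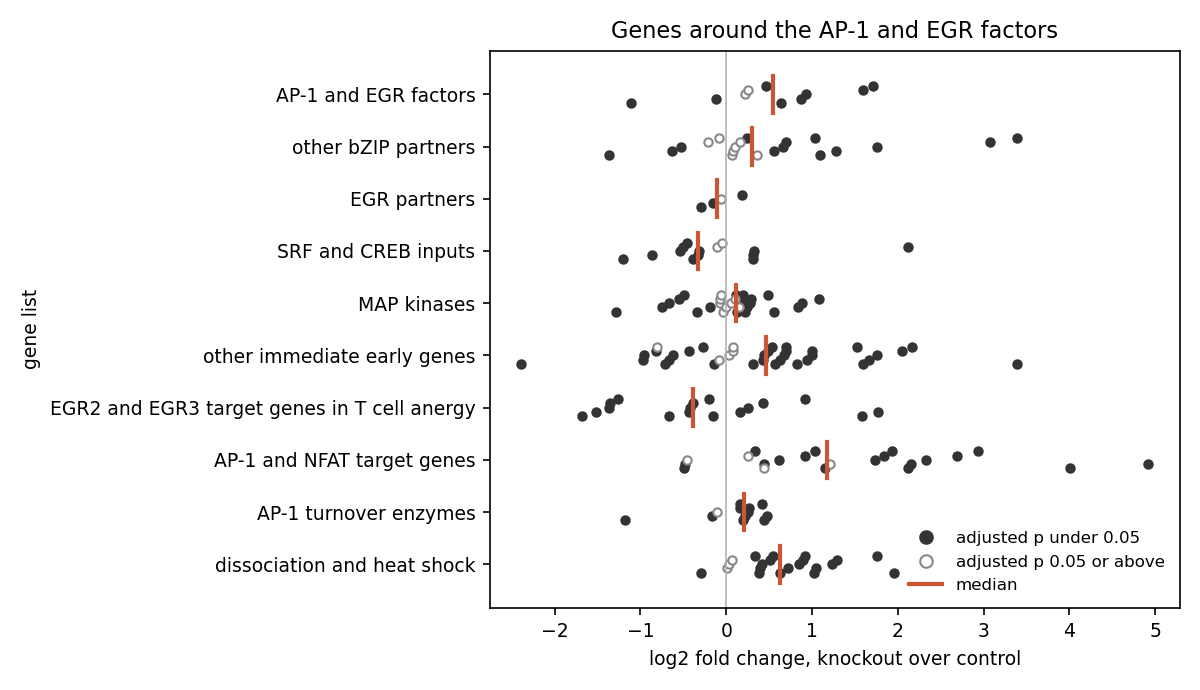
Log2 fold change of each tested gene (x axis) in the 10 AP-1 and EGR factors, in the lists around them and in the heat shock list, with filled points past the test, open points not, and an orange bar at the median. Medians run from -0.39 in the anergy list to 1.18 in the AP-1 and NFAT list, and each list other than the small set of EGR partners spans more than 1 log2 unit.

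Immediate early genes can also rise while tissue is being taken apart. In the list of dissociation and heat shock genes 17 of 21 rose and 1 fell, with a median of 0.62, and its summed level was 20680 to 22290 CPM in controls and 26780 to 28360 in knockouts. Its most abundant members Hsp90ab1 and Hspa8 stood at 10370 ± 522 and 3536 ± 50 CPM in controls and 10890 ± 245 and 4729 ± 290 in knockouts (SD, n = 4). The inducible gene Hspa1b, named after its values were seen, was at 0.980 ± 0.094 and 3.83 ± 0.30 CPM. Dnajb1, also named after its values were seen, was at 41.2 ± 1.5 and 41.4 ± 1.8 CPM. Neither Dnajb1 nor Hsp90ab1 passed the test. The part of this list in the differences above was not tested. Markers of other cells were low or led by 1 or 2 genes. Macrophage markers summed to 6.60 to 7.14 CPM in controls and 5.43 to 6.27 in knockouts, with 4 of 12 passing the filter. Dendritic cell markers summed to 3.36 to 3.97 and 4.70 to 5.28 CPM, with 4 of 7 passing, and neutrophil markers to 0.452 to 0.877 and 0.0872 to 0.279 CPM, with 1 of 6 passing and S100a8 and Retnlg at 0 in all libraries. Over all libraries the macrophage markers with the highest means were Cd68 and Csf1r. Cd68 stood at 2.38 ± 0.24 and 2.14 ± 0.29 CPM and did not pass the test, while Csf1r rose from 1.28 ± 0.25 to 2.00 ± 0.25 (SD, n = 4; edgeR quasi-likelihood test, adjusted p = 0.0017). Itgam fell from 2.26 ± 0.31 to 0.557 ± 0.19 CPM. Of the dendritic markers, Zbtb46 rose from 0.618 ± 0.16 to 2.37 ± 0.33 CPM and Itgax fell from 1.26 ± 0.19 to 0.594 ± 0.12. Myeloid markers thus moved in both directions. B cell markers summed to 187 to 201 CPM in controls and 88.9 to 98.7 in knockouts, nearly all of it Ighm at 187 ± 6.1 and 89.0 ± 4.3, with Cd79a at 1.21 ± 0.30 and 0.471 ± 0.11 CPM. Of the 7 B cell markers 6 passed the filter, 1 of them rising and 3 falling. Fibroblast and endothelial markers summed to 99.9 to 112 and 25.3 to 30.6 CPM, nearly all Pecam1, with 2 of 9 passing and Pdgfra at 0. Melanoma markers summed to 17.9 to 19.4 and 5.30 to 6.56 CPM, with Pmel at 16.9 ± 0.93 and 4.32 ± 0.45 and Mitf at 1.72 ± 0.092 and 1.60 ± 0.092 CPM, 2 of 7 passing and Mlana, Tyr and Tyrp1 at 0 in all libraries. In these 3 lists, and in those of macrophage, neutrophil and CD4+ T cell markers, the summed level was lower in every knockout than in every control. For dendritic cell and natural killer markers it was higher in every knockout. Natural killer markers summed to 36.0 to 40.1 and 50.5 to 54.9 CPM, mostly Eomes and Gzma, which CD8+ T cells also express, and all 6 passed the filter, 3 of them rising and 1 falling. Klrb1c and Klre1 rose from 0.488 ± 0.21 to 1.64 ± 0.38 CPM and from 0.981 ± 0.17 to 2.79 ± 0.56, and Ncr1 stood at 0.271 ± 0.12 and 0.187 ± 0.087 CPM (SD, n = 4). Markers of CD4+ T cells summed to 36.1 to 38.3 and 31.9 to 35.5 CPM, led by Zbtb7b and Foxp3 at 21.8 ± 1.1 and 12.8 ± 0.67 CPM in controls and 19.9 ± 1.9 and 12.0 ± 0.80 in knockouts. The part of other cells in the differences above was not tested.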

How the data were processed

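The authors deposited raw read counts per gene for 8 libraries, with exon coordinates and lengths. Per the submitters' processing notes, Trimmomatic 0.36 and featureCounts of Subread 1.5.1 were used on GRCm38. Not given in the sources used here are the aligner, annotation release and strand setting, and whether molecular tags were used. Per the labels' protocols, stranded libraries were made from TRIzol-extracted RNA. Among genes with 1 to 10 counts, 85.7% to 87.7% in a library had an even count, as when both mates of a pair are counted. Count floors cover counting error only, and 95% intervals of fold changes come from the fit across libraries.

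Counts were fitted in edgeR 4.0.16 (R 4.3.3) after filterByExpr and TMM scaling, with the quasi-likelihood F test, robust dispersion, two-sided, 4 knockout against 4 control libraries, and Benjamini-Hochberg adjustment over 17940 genes at 0.05. The fit was also run on simulated counts in which few genes changed, equally up and down, all of them well counted. That setting differs from these data, so it does not show how the fit performs on them. Standard errors were derived from the fold change and its F value. CPM uses TMM-scaled library sizes. TPM uses the lengths in the table. At 0 counts, 3 counts would be 0.0487 to 0.0691 CPM, a floor that makes no allowance for read pairs counted as 2. Libraries of a genotype differed by 1.77 to 5.35 times sampling noise on halved counts, so none was treated as a repeat. DESeq2 1.42.0, other scalings, no filter, halved counts, removal of X and Y genes, a replicate block and removal of each library were alternatives.

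The 10 genes and the lists were chosen with earlier results of these data known. By rule, the text names the 10 genes, up to 4 called genes of smallest adjusted p (mean of at least 1 CPM) per pathway list, the 2 most abundant genes of each marker list and the nearest profiles, and some that the rule gives are left out. Others are marked as named after their values were seen. Named so too were Plpp1, Xist, Usp6nl, the Y-linked genes, the overlapping genes and the markers Cd8a, Cd3e, Cd4, Cd79a, Itgam, Klrb1c, Klre1 and Ncr1. Promoters were taken from RefSeq GRCm38.p6, and exon lengths for comparison from GENCODE M21.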

Additional observations from a re-analysis of the deposited data

Results flagged for a closer look

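Both results flagged concern knockout replicate 2, whose gap to the nearest library was large for a group of 4. In that library Jund made up 29.0% of the summed TPM of the JUN genes, where the other 3 knockouts held 31.0% to 31.1%. Its ratio of Junb to Jund in TPM was 2.18, where the others held 1.94 to 1.97. The ratio is built from the same levels as the share, so these are not separate signs. In 58 groups examined 2 were flagged, and chance flags about 1 in 20. The controls held 45.5% to 48.7% and ratios of 0.924 to 1.05, so the library stood on the knockout side of the difference either way.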

How the results depend on the processing

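The count of called genes was 11542 and stayed within 1.5 times that number under all alternatives run, from 11010 to 11556 without one library each. Deviations of same-numbered libraries correlated at 0.0049 to 0.0574, beside highest values of 0.00242 to 0.0395 for libraries of other numbers. These low values cannot tell whether libraries were paired by design, which is not stated. With the replicate block 11516 genes were called, with the same 8 of the 10 AP-1 and EGR genes. Without a scaling factor, 48.8% of called genes were higher in knockouts against 50.9% with TMM, and no scaling moved the median of all genes by over 0.1. Fosb, Fosl1, Fosl2, Jun, Junb, Egr1 and Egr3 kept direction and call in all 16 alternatives, with log2 fold changes of 0.52 to 0.69, 1.66 to 1.73, 1.51 to 1.66, 0.84 to 0.90, 0.90 to 0.95, 0.39 to 0.51 and -1.16 to -1.05. Fos was called in none (0.041 to 0.36, adjusted p = 0.16 to 0.89 over edgeR and DESeq2 fits). Jund was called in 13 of 16 (-0.15 to -0.096) and lost its call in 3 fits without 1 library, and Egr2 was called in 1 of 16 (0.19 to 0.30). The cause was not tested. Depth limits Fos most, at 30 to 75 counts per library.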
